A study of Mus musculus with 2 samples.

Results

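The genes that write, remove and read DNA methylation were followed here in RNA of the whole wild-type mouse embryo, taken at E14.5, a midgestation stage at which most organs are being laid down. The 9 genes Dnmt1, Dnmt3a, Dnmt3b, Dnmt3l, Uhrf1, Tet1, Tet2, Tet3 and Mbd1 were taken by name, through every probe set that the array annotation assigned to one of them. They had 25 probe sets between them, among 34958 probe sets that paired with 1 symbol and named 18194 genes. Total RNA isolated with RNAzol was labelled with biotin and run on 2 duplicate Affymetrix arrays of 1 condition. The study's embryos of this stage were of the NMRI or the C57/BL6 strain. Which of them the arrays used, the number of embryos behind each array and whether the duplicates were separate RNA are not given in the sources used here, so the spread between them may be technical. With 1 condition no contrast could be tested, and every value below is a description of these 2 arrays. In RNA of a whole embryo, fewer cells of a type and less RNA per cell cannot be told apart.

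In mammals a methyl group is placed mostly on the cytosine of CpG dinucleotides. Dnmt3a and Dnmt3b lay down new methylation with the help of Dnmt3l, which has no catalytic activity of its own, and Dnmt1 restores the pattern on the new strand after each round of replication, guided there by Uhrf1, which binds CpG sites methylated on only one strand. The dioxygenases Tet1, Tet2 and Tet3 oxidise the methyl group and so open the way to its removal, and Mbd1 belongs to the proteins that bind methylated CpG and recruit repressors.

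Sequence upstream of the gene start differed widely in CpG content among these genes. From RefSeq windows on GRCm38.p6 the 250 bases before the start are shown for 4 genes, with each CpG in capitals. They are a de novo methyltransferase (Dnmt3b), the eraser with the most CpG (Tet2), the cofactor that was the exception in the array data (Dnmt3l) and a germline gene known to be silenced by methylation in somatic cells (Dazl). Dnmt3b lies at chr2:153649199-153649448 on the plus strand, Tet2 at chr3:133544391-133544640 on the minus strand, Dnmt3l at chr10:78042037-78042286 on the plus strand, and Dazl at chr17:50293621-50293870 on the minus strand.
Dnmt3b: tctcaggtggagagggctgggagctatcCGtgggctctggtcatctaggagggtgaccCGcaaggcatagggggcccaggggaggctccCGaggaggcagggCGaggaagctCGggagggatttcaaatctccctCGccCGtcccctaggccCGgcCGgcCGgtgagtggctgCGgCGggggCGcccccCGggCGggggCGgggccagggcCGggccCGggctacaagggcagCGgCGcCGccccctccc
Tet2: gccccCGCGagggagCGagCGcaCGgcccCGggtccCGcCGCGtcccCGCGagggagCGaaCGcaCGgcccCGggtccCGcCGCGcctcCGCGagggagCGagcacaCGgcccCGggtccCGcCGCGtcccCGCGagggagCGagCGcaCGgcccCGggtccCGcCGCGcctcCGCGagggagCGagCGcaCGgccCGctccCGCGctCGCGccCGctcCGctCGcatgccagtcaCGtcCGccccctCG
Dnmt3l: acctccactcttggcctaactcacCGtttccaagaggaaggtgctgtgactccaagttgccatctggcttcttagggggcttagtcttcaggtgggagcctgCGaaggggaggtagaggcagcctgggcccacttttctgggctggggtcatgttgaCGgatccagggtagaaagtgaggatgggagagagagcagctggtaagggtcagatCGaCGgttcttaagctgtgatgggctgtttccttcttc
Dazl: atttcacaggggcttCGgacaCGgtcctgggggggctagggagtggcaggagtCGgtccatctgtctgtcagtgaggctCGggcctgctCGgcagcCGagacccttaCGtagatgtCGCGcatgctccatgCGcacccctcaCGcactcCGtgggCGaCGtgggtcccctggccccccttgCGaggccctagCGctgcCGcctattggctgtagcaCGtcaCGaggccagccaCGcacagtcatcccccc
The printed stretches hold 21 CpG for Dnmt3b, 51 for Tet2, 5 for Dnmt3l and 20 for Dazl.

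Above background on both arrays were 8 of the 9 genes (88.9%), with Dnmt3l as the exception. Among all genes 65.5% were above background. The signals are linear values from the authors' scanner software, scaled to a trimmed mean of 100 on each array, and as background bound served the 95th percentile among 81 probe sets for chemosensory receptors (olfactory, vomeronasal and bitter taste), which lay at 27.9 on array 1 and 33.8 on array 2. A gene was counted where 1 or more of its probe sets exceeded the bound on array 1 and 1 or more on array 2, so that genes with more probe sets passed more often. The share was 48.6% for genes with 1 probe set, 76.1% with 2, 87.4% with 3, 91.6% with 4 and 96.2% with 5 or more. Averaged over genes with as many probe sets as each of the 9, it was 77.4%, and 9 genes are too few to set their 88.9% apart from it. Of the 25 probe sets, 18 (72%) were above the bound on both arrays, 7 were below it on both and none was above it on 1 array only, against 55.6% above on both for all probe sets with 1 symbol. Signals of different probe sets depend on their oligonucleotides, so levels are not ranked between genes.

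**Figure D1:**
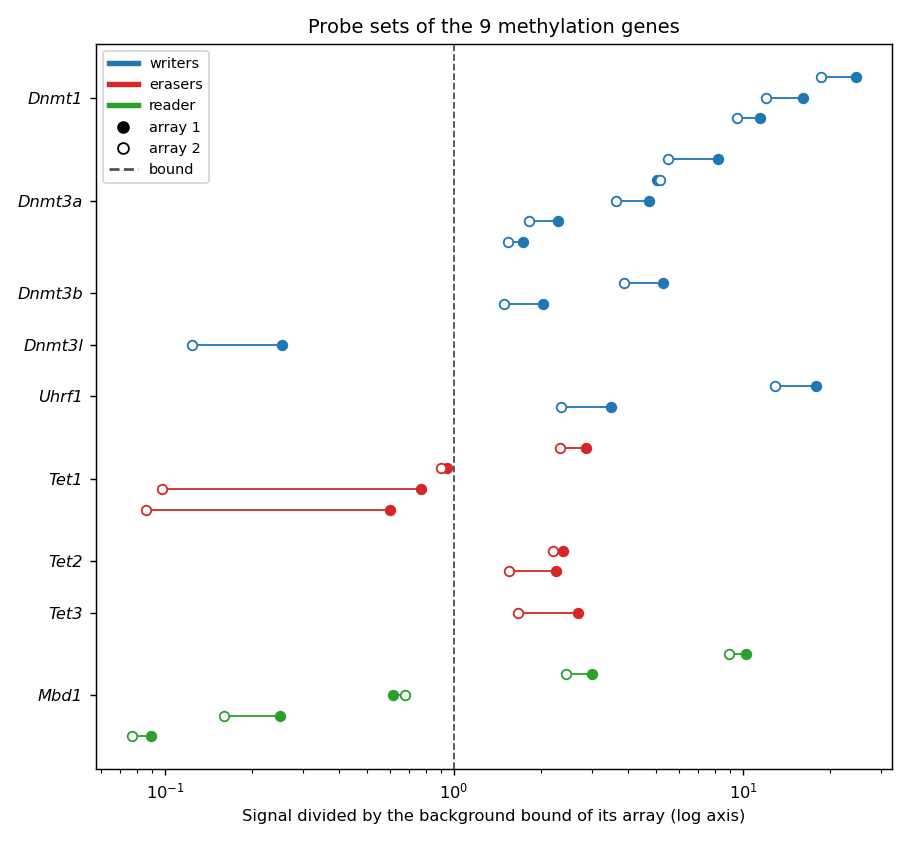
Each row is a probe set of the 9 genes, with its signal as a multiple of the background bound on a log axis; the filled point is array 1, the open point array 2, and a line joins them. All probe sets of Dnmt1, Dnmt3a, Dnmt3b, Uhrf1, Tet2 and Tet3 lie to the right of the dashed bound, Tet1 and Mbd1 have probe sets on both sides, and Dnmt3l lies to the left of it.

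The maintenance genes were far above background on both arrays. Dnmt1 was measured by 3 probe sets, the first at 687 on array 1 and 627 on array 2, the next at 449 and 407, and the last at 319 and 323. The lowest of these was still 11.4 and 9.6 times the bound, and the 3 probe sets lay within 2.05-fold of each other. Since 2 of the 3 are of a kind (_x_at) in which some oligonucleotides also match other sequences, cross-hybridisation can add to those signals. The third, of a kind (_a_at) that recognises several transcripts of the same gene, passed as well. Uhrf1 had signals of 501 and 435 through 1 probe set and of 97.6 and 79.4 through the other. Both Uhrf1 probe sets were designed from the same sequence record and yet differed 5.30-fold, which shows how far probe sets of a single gene can lie apart.

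Both de novo methyltransferases passed with every probe set. All 5 probe sets of Dnmt3a go back to 1 sequence record, and their signals were 228 and 187, 141 and 174.5, 132 and 123, 63.9 and 61.6, and 48.4 and 51.9 on arrays 1 and 2. The weakest was 1.73 times the bound on array 1 and 1.54 times on array 2. Dnmt3b had signals of 148 and 131 through 1 probe set and 56.7 and 50.2 through the other, both of the kind that recognises several transcripts of the gene. Neither gene had a value under the bound on either array.

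Dnmt3l, the cofactor of de novo methylation that is best known from germ cells, was not above background. Its only probe set gave 7.1 on array 1 and 4.2 on array 2, or 0.25 and 0.12 times the bound. A signal under the bound does not show that the transcript is absent, and a single probe set leaves no second reading. The markers of germ cells and pluripotent cells, in which Dnmt3l is known to act, were also mostly below background, with 1 of 10 measured genes above it against 56.3% of all genes with as many probe sets. Pou5f1 had signals of 1.4 and 3.1, Nanog 0.9 and 1.3, and Dppa3 25.4 and 33.6, the last just under the bound on array 2. The 9 markers not above background on both arrays ranged from 0.9 to 29.9 on array 1 and from 1.3 to 33.6 on array 2, and none was at 0. Dppa5a, another marker of pluripotent cells, was above the bound on array 1 at 29.9 and below it on array 2 at 30.7. The gene above it was Tfap2c (69.1 and 84.5), a factor of primordial germ cells that other embryonic tissues such as surface ectoderm also use. Tfap2c passed through only 1 of its 3 probe sets, so its call depends on which of them is trusted. Whether a low share of germ cells in the embryo plays a part in the Dnmt3l signal was not tested.

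All 3 erasers passed, each through at least 1 probe set. Tet2 was above it through both of its probe sets, with 66.6 and 74.3 for one and 63.0 and 52.4 for the other. Tet3 was above it through its only probe set, at 74.8 and 56.3, which is 2.68 and 1.67 times the bound. Tet1 rested on 1 of 4 probe sets, whose signals of 79.7 and 78.8 were nearly equal on both arrays.

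The other probe sets of Tet1 stayed below the bound. One was just under it with 26.4 and 30.5, and the remaining pair dropped from 21.4 to 3.3 and from 16.7 to 2.9 between array 1 and array 2. Values below the bound have no order, so no fold is given for them. The call for Tet1 therefore depends on which probe set is trusted, and the part of the transcript that each of them covers was not used here.

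Mbd1, the reader, was split in the same way. A probe set that recognises several of its transcripts had signals of 285 and 302, and a second one had 83.5 and 82.5, so that both were above background on both arrays and differed 3.54-fold. Another group of 3 probe sets, all designed from 1 further sequence record, stayed below the bound with 17.1 and 22.8, 7.0 and 5.4, and 2.5 and 2.6. The first of this group is also of the kind that recognises several transcripts of the gene. The annotation used here does not place these probe sets on particular transcripts of Mbd1.

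For genes with at least 2 probe sets above background, the highest and lowest probe set of a gene lay apart by a median of 1.60 on the log2 scale in the 6 genes concerned (Dnmt1, Dnmt3a, Dnmt3b, Uhrf1, Tet2 and Mbd1). The range was from 0.29 for Tet2 to 2.41 for Uhrf1. Over all 4805 such genes the median was 1.33. In each of these genes other than Tet2 that spread was over 1 on the log2 scale.

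The duplicates gave similar signals for these genes. Of the 18 probe sets above background, none differed by more than 1.5-fold between the arrays, where 3.74% of all 22138 probe sets above background did. The log2 difference (array 2 minus array 1, centred on the median of all these probe sets) had a median of -0.12 and ranged from -0.42 for Tet3 to 0.30 for a probe set of Dnmt3a. Its SD over all probe sets was 0.26, and 13 of the 18 lay within 1 such SD, as did 73.7% of all probe sets. Lower on array 2 were 13 probe sets and higher were 5.

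Of the 12 probe sets of the writers above background, 9 were lower on array 2. Both probe sets of Uhrf1 were lower (-0.21 and -0.31), as were both of Dnmt3b (-0.18 and -0.19) and 2 of the 3 of Dnmt1 (-0.14 and -0.15, with 0.01 for the other). The probe sets of Dnmt3a did not move as one, since the one with the highest signal lay at -0.30 and the next at 0.30. S phase genes, which like Dnmt1 and Uhrf1 are known for their use in replicating cells, were counted by gene, each through its probe set with the highest signal. Of these 12 genes 7 were higher on array 2, with a median of 0.09. Counted in the same way, all 4 writers above background were lower on array 2, with a median of -0.20. Both medians were smaller in size than 0.26, the SD of the difference over all probe sets above background. No share of all genes lower on array 2 by this count was set beside them. Whether the number of replicating cells plays a part in these differences was not tested. All these differences lie between single arrays of one condition, and probe sets below the bound, with Dnmt3l among them, did not enter.

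**Figure D2:**
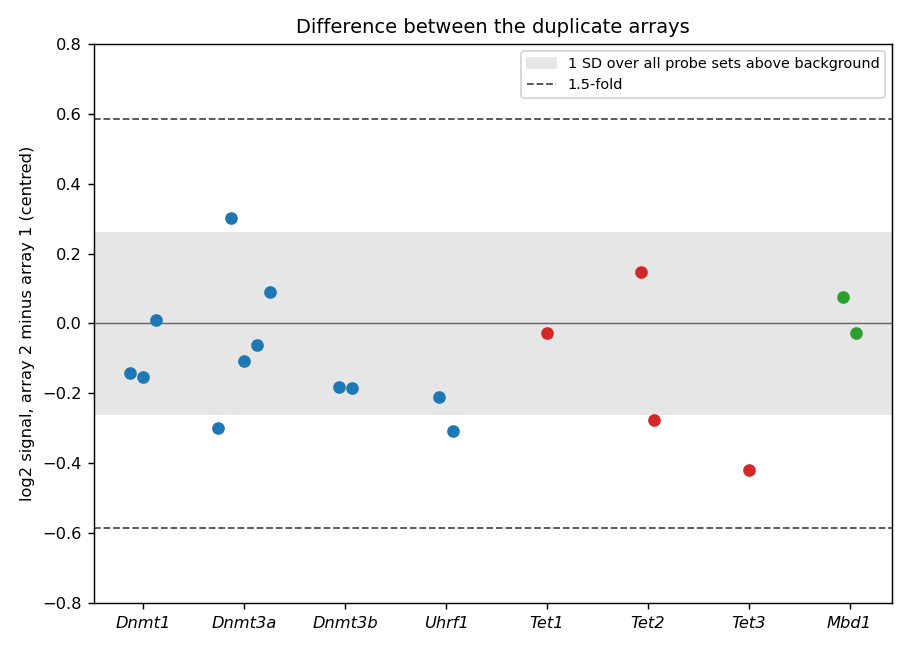
Centred log2 difference (array 2 minus array 1) of the 18 probe sets above background on both arrays, by gene, with writers in blue, erasers in red and the reader in green. The grey band is 1 SD (0.26) of the difference over all 22138 probe sets above background; all 18 points lie inside the dashed lines of 1.5-fold, and 13 lie inside the band.

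Other genes of the methylation machinery were almost all above background. In 6 lists of partners, further readers and their relatives, repair genes, proteins of unmethylated CpG and methyl donor enzymes, 47 of 51 measured genes (92.2%) passed, where genes with as many probe sets passed in 70.1% of cases. Among factors that help in writing and maintenance, 9 of 11 passed, including Uhrf2, the paralogue of Uhrf1 (130 and 118.5), the chromatin remodeller Hells (166 and 156) and its partner Cdca7 (262 and 281). Uhrf2 and Cdca7 passed through only 1 of 2 probe sets each, and Hells through 2 of 3. The exceptions were Zfp57 (5.6 and 7.5), which keeps methylation at imprinted loci, and Dppa3, an oocyte factor that shields methylation in the zygote.

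All 7 other genes measured in the list of methyl-CpG binding proteins and their relatives were above background. Mbd2 had signals of 394 and 359.5, Mbd3, which has lost most of its preference for methylated CpG, 206 and 188, and Mbd4, a glycosylase, 29.5 and 37.7, close to the bound. Both measured partners of Mbd1 passed, with the histone methyltransferase Setdb1 at 280 and 284 and its cofactor Atf7ip at 302 and 307. Setdb1 and Mbd4 passed through only 1 of 3 probe sets each, and Atf7ip through 2 of 3.

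Of the genes listed for the repair of oxidised or deaminated bases, not all of them enzymes, 12 of 13 passed. Smug1, a uracil glycosylase, had 83.1 and 75.3, and Apex1, the main endonuclease of abasic sites, 1334 and 1250.4. The exception was Apobec1, a cytidine deaminase of the intestine, at 6.3 and 21.4. All 8 proteins with a CXXC domain for unmethylated CpG passed, among them Cxxc1 (290 and 245), Kdm2a (185 and 158.5) and Kdm2b (939 and 889). Cxxc1 passed through 1 of 2 probe sets, Kdm2a through 3 of 7 and Kdm2b through 2 of 2.

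Among enzymes of methyl donor supply 10 of 11 passed, including Ahcy, which clears the by-product S-adenosylhomocysteine (809 and 929), Mtr, the methionine synthase (140 and 172), and Mat1a, the adult liver form of methionine adenosyltransferase, near the bound at 37.0 and 39.9. Gnmt, a methyltransferase of the adult liver, was the exception at 17.8 and 31.2. All 12 S phase genes passed, against 80.5% of all genes with as many probe sets. Among them were the helicase subunits Mcm2 (503 and 549), Mcm3 (1054 and 996) and Mcm4 (870 and 1075).

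Genes known to be kept silent in somatic cells by promoter methylation were not above background. Of 14 such germline genes, 0 passed on both arrays, where genes with as many probe sets passed in 57.2% of cases. Dazl, an RNA-binding protein of germ cells, had signals of 7.1 and 15.2, the helicase Ddx4 5.2 and 7.2, and Mael, a factor of transposon silencing, 7.2 and 7.0. Asz1 was above the bound on array 1 at 32.1 and below it on array 2 at 18.1. Methylation itself was not measured here, and whether it or a low share of germ cells plays a part in these signals was not tested.

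**Figure D3:**
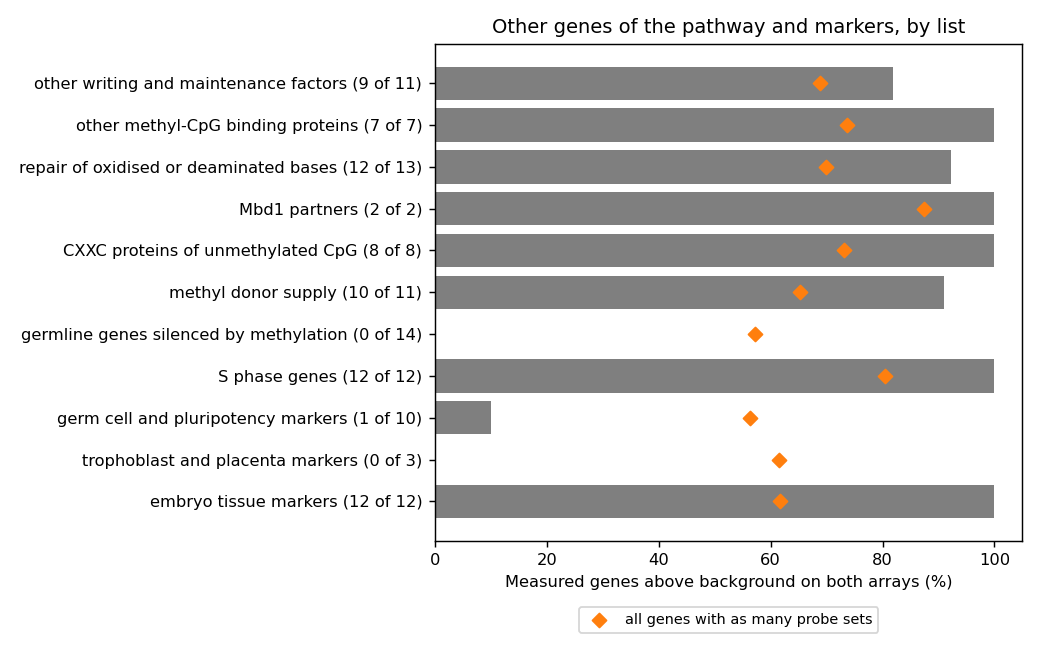
Percentage of measured genes called above background, for each list, with the numbers of genes in parentheses; diamonds give the share of all genes with as many probe sets. The 6 machinery lists and the S phase genes reach 81.8% to 100%, and the germline genes have 0 of 14.

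The CpG content of the start windows was set beside these calls. RefSeq windows of 300 bases (250 before and 50 after the start) were used for 8 of the 9 genes and for all 14 germline genes. Windows on chr18 were left out of every CpG count, and Mbd1 had no window among those used. The motif counted was CG, which reads the same on both strands. A window held a median of 7 CpG over all 32851 windows used.

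For each gene the listed start with the most CpG was taken. It held 33 for Dnmt1 (8.56% of all windows hold as many or more), 47 for Dnmt3a (1.44%), 30 for Dnmt3b (11.7%), 33 for Uhrf1 (8.56%), 17 for Tet1 (31.4%), 57 for Tet2 (0.152%) and 22 for Tet3 (23.1%). Dnmt3l, the gene below background, held 6 (56.4%), and its other starts held 4 and 3. Dnmt1 had starts with 2, 12 and 33 CpG, so that its value is that of only one of them. The percentages set a gene's highest start against single windows, so they are not shares of genes. By the highest window of each gene, 6667 of 14453 genes on the array held 20 or more CpG and 4360 held under 10.

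Over all genes on the array with such a window, 33.1% of 4360 genes with under 10 CpG were above background, 72.4% of 3426 genes with 10 to 19 and 85.5% of 6667 genes with 20 or more. Dnmt3l fell into the first class and the other 7 genes into the higher ones. The germline genes held from 15 to 38 CpG, with a median of 22.5. They lay in the classes in which most genes were above background, and none of the 14 was. The Dazl window held 28 and that of Ddx4 38. This list was made of genes already known to be silent in somatic cells, so its low count could not test a link between CpG content and the calls. A count of CpG is a description of sequence. Genes with more CpG may also differ in their number of probe sets, which was neither examined nor adjusted for here.

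**Figure D4:**
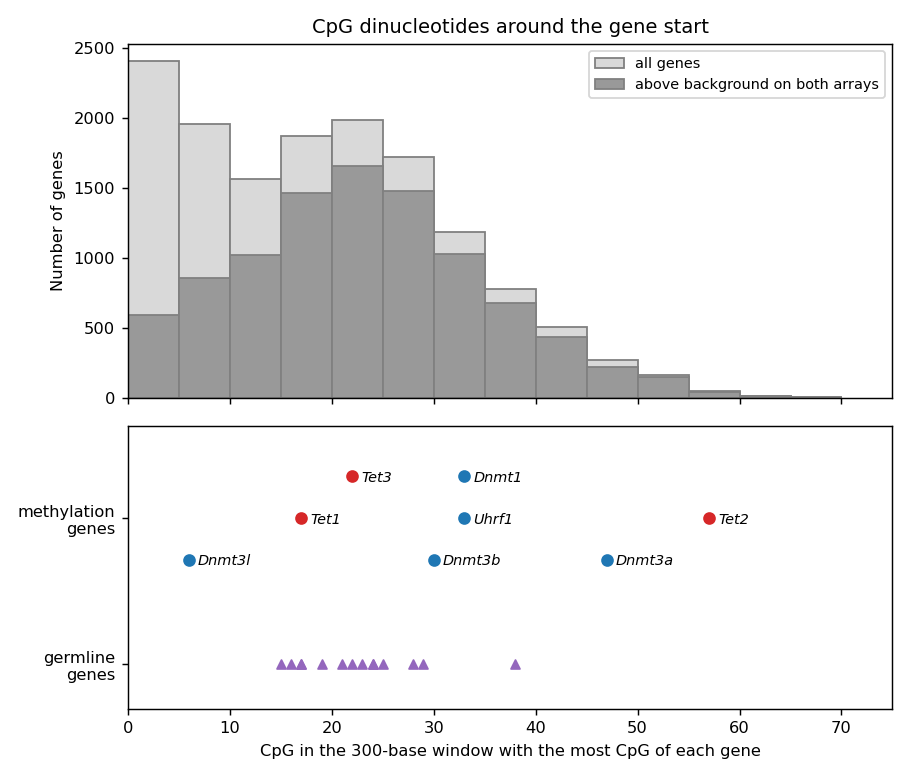
Upper panel, number of genes by CpG count in the 300-base window with the most CpG, in bins of 5, for all genes (light) and those above background on both arrays (dark). Lower panel, the same count for 8 of the genes described (writers blue, erasers red) and for 14 germline genes (triangles, some of which overlap); Dnmt3l stands at 6 and the other 7 between 17 and 57, and the germline genes between 15 and 38.

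The label of a whole embryo was checked against markers. All 12 markers of embryonic tissues passed, against 61.6% of all genes with as many probe sets. They included Afp of liver (3594 and 3529), Hbb-y of primitive red cells (3947 and 4118) and Col2a1 of cartilage (1609 and 1439). Of 8 listed trophoblast markers only 3 were measured and 0 passed, against 61.5% of genes with as many probe sets. Their signals (Tpbpa, Psg17 and Ctsq) lay between 0.8 and 6.3. Of lists taken as silent at this stage, 1 of 12 late spermatid genes (Tssk1; Prm1, Prm2 and Tnp1 were below), 0 of 9 photoreceptor genes (Sag, Gnat1 and Pde6a among them) and 1 of 7 milk and adult liver genes (Cyp2c29; Csn1s1, Csn2 and Wap were below) were above background. For these lists, in that order, genes with as many probe sets passed in 62.9%, 51.6% and 56.4% of cases. In the last list Cyp3a11 passed the bound on array 1 only, at 43.1 and 33.8. The values shown for Afp and Hbb-y came from probe sets of the _x_at kind, to whose signals cross-hybridisation can add.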

How the data were processed

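Signals were deposited by the authors as linear intensity values, 1 per probe set and array, made with GCOS 1.3 per the labels and scaled to a mean of 100 after trimming of 2% at each end. They were not logged or centred. Detection calls were not used here, so presence was judged by a bound on the signal. Array annotation symbols were brought up to date by Entrez number against RefSeq genes of GRCm38.p6, which matched 34754 of 34958 probe sets paired with 1 symbol. The 932 with several symbols, none naming one of the 9 genes, and the 9211 with no listed gene were left unnamed.

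The 9 genes and all lists were chosen with earlier results of these data known. The text names all 9 genes with every probe set, the first 3 measured genes of each list, and a list's exceptions where they are 5 or fewer; Asz1, Dppa5a and Cyp3a11 were named after their values were seen. A gene of a list is shown by its probe set with the highest mean signal, which for some genes, Apex1 and Mcm4 among them, is of the _x_at kind. Differences were taken on the log2 scale over 22138 probe sets above background on both arrays and centred on their median, which was 0.01. No p-value was computed. The number of arrays limits the precision. The steps were tested on simulated data. Windows read 5' to 3' on the gene's strand.

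The bound was also moved to the 90th or 99th percentile, to the silent lists or to the array median. Other alternatives were stricter gene calls, removal of probe set kinds open to cross-hybridisation or shared transcripts, each array alone, no centring, quantile normalization, loess (span 0.3) and no filter with a pseudocount of 16. Python 3.11.15 was used with numpy 2.4.6, pandas 2.3.3, statsmodels 0.14.6, scipy 1.17.1 and matplotlib 3.10.9.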

Additional observations from a re-analysis of the deposited data

How the results depend on the processing

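The count of genes above background was 8 under 7 of the 9 alternatives, with either array alone among them, and 6 under the other two. Under those 7 alternatives between 61.9% and 69.0% of all genes passed. With a call that needed more than 0.5 of a gene's probe sets, Tet1 (0.25 of its probe sets above the bound) and Mbd1 (0.4) fell below background, as only 1 of 4 and 2 of 5 passed. Of all genes 48.2% passed by this call, against 65.5% by the main one. Without probe sets of other kinds than _at, Dnmt1, Dnmt3b and Dnmt3l had none left, and the 6 remaining genes all passed. Of all genes left 61.2% did. The machinery total of 47 ranged from 36 (the call by more than 0.5 of the probe sets) to 48 (90th percentile bound, by which 68.8% of all genes passed). It was 47 with either array alone. The median difference between the arrays ranged from -0.13 to -0.09. Without a filter the Tet1 value moved to -0.43, since its probe sets below the bound then entered, and 2 of them differed by over 1.5-fold between the arrays. The median spread between probe sets of 1 gene was 2.04 without the other kinds, where fewer genes entered, 1.62 and 1.58 with array 2 or array 1 alone, and 1.40 with a pseudocount of 16. Of 153 list tallies under the alternatives, 139 lay within 1.5 times their value; the germline genes reached 1 with array 1 alone, through Asz1, and the germ cell markers and the milk and adult liver genes reached 2 each, through Dppa5a and Cyp3a11. With the call by more than 0.5 of the probe sets, 5 of 8 CXXC proteins and 1 of 2 Mbd1 partners passed. The germ cell and pluripotency markers above background numbered between 0 and 3, the highest with the 90th percentile bound. No paired analysis was possible because both arrays are of 1 condition.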
